A study of Mus musculus with 13 samples.

Results

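The ephrins and Eph receptors described here are 10 listed genes of the mouse, the ligands Efna1, Efnb1 and Efnb2 and the receptors Epha1, Epha2, Epha4, Ephb2, Ephb3, Ephb4 and Ephb6. Each gene was chosen by name and read from the probeset (the set of array probes for a gene) that carried its symbol alone and had the highest mean. This gave values for 9 of the 10 genes, each with 1 probeset, among 18820 genes in all. Ephb2 was not analysed here.

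The RNA came from 5 groups of samples of the mouse stomach, 13 arrays in all. Chief cells (3 arrays) and parietal cells (2 arrays) were sorted by flow cytometry from the corpus of mice carrying EGFP and CreERT2 in the Tnfrsf19 (Troy) gene, where the gene's own regulatory sequences drive the reporter. Each of these arrays pooled about 100000 cells from 10 mice. The sorted cells are therefore the reporter-positive part of each cell type. Whole corpus glands (2 arrays) were not dissociated further, and their labels name no reporter allele. Organoids, which are closed epithelial structures grown in a gel, were started from single reporter-positive chief cells. They were kept in EGFNWR medium (EGF, gastrin, FGF10, Noggin, Wnt3a and Rspondin, 3 arrays) or in ER medium (EGF and Rspondin, 3 arrays). Both media hold EGF and Rspondin, so ER differs by the absence of Wnt3a, Noggin, FGF10 and gastrin together. The study's text says that the organoid arrays of a medium came from different cultures. The labels used here give no age, sex or exposure time, and do not say how many mice the organoids came from. A protocol label speaks of intestines for the sorted cells, whereas all other labels name the gastric corpus.

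Eph receptors form the largest family of receptor tyrosine kinases, and their ephrin ligands are also held in the cell membrane, so signalling needs contact between cells. Ephrin-A proteins are anchored by a lipid tail and ephrin-B proteins cross the membrane, and both sides of the contact can receive a signal, which often makes the cells repel each other. In the intestine, Wnt signalling is known to raise the receptors EphB2 and EphB3 in the crypt base and to lower ephrin-B1, and the opposed gradients keep cell types in place along the crypt.

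Levels below are log2 intensities as deposited, so a difference of 1 is a doubling. Array medians over all probesets lay between 5.01 and 5.30, and a value below them is not shown to exceed background. The marker genes of both sorted types were present in each other's arrays. The mean level of 6 parietal markers was 9.30 to 11.08 in sorted chief cells, 11.23 and 11.36 in sorted parietal cells and 9.81 and 10.62 in glands. The mean of 5 measured chief markers was 11.46 to 12.30, 10.70 and 10.79, and 10.79 and 11.53 in the same order. Over all probesets, r between chief replicate c and the 2 parietal arrays was 0.979 and 0.982, above its r with chief a (0.950) and chief b (0.961). Between chief replicate a and glands a it was 0.978. Chief replicate b had a squamous keratin signal (Krt5 at 11.85). None of 6 endothelial markers lay above the array median on any of the 13 arrays, while 0 of 4 tuft cell markers did so on the sorted arrays and 4 of 4 on both gland arrays. In such bulk RNA, fewer cells of a type and less RNA per cell cannot be told apart.

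The promoters of the 4 members whose level differed between the organoid media are shown because these are the genes that changed, 3 of them upward and Ephb4 downward. They are the 250 bases before each gene's start in RefSeq (build GRCm38.p6), written 5′ to 3′ on the gene's strand, with matches to the TCF/LEF motif, to which the effectors of Wnt signalling bind (CTTTGAT or CTTTGAA, either strand), or to the AP-1 motif TGANTCA in capitals.
Efnb1, chrX:99135811-99136060, plus strand: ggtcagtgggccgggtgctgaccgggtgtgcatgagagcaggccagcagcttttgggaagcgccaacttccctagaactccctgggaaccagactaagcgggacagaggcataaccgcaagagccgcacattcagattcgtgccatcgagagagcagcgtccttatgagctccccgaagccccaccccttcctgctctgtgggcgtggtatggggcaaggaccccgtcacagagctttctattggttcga
Epha2, chr4:141300971-141301220, plus strand: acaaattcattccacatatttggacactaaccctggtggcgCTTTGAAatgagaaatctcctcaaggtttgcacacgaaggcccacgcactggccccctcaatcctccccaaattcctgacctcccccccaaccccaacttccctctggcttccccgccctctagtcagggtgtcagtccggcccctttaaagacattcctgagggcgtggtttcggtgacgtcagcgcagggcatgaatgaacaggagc
Epha1, chr6:42373269-42373518, minus strand: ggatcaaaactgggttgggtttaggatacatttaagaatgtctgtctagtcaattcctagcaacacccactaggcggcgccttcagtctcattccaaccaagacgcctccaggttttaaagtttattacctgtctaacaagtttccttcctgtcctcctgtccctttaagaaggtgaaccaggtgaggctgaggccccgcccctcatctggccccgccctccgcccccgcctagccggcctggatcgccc
Ephb4, chr5:137349859-137350108, plus strand: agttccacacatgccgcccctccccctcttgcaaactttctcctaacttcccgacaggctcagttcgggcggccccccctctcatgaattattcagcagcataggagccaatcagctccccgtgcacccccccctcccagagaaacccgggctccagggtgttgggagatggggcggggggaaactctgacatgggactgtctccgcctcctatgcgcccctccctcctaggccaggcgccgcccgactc
Only Epha2 held a match, a TCF/LEF motif on the gene's strand that starts 209 bases before the start. Among all 32851 promoters of that table, 7.48% held this motif and 6.75% held the AP-1 motif in the same window. Neither motif was found in the windows of the other members, Ephb2 included. These letters describe the window only. The 4 sequences held 9 (Epha2, Epha1), 12 (Ephb4) and 13 (Efnb1) CpG dinucleotides, against a median of 6 over all promoters. The windows of the other members held more, from 14 (Epha4) to 27 (Ephb6 and Efnb2).

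Among the ligands, Efna1, an ephrin-A ligand and a known partner of the receptor EphA2, had lower levels in tissue and higher ones in organoids. It was 7.42, 7.43 and 7.17 on chief arrays a, b and c, 6.80 and 6.89 on the parietal arrays and 6.94 and 7.58 on the gland arrays. In EGFNWR organoids it was 9.03, 8.66 and 9.48, and in ER organoids 9.39, 9.21 and 9.62. Every organoid array lay above every tissue array, and the 2 media overlapped.

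Efnb1, an ephrin-B ligand that in the intestine lies away from the stem cell zone, had its lowest level in parietal cells and its highest in ER organoids. It was 6.40, 7.15 and 5.89 in chief cells, 5.94 and 5.45 in parietal cells and 6.65 and 7.89 in glands. The organoid values were 7.85, 7.75 and 7.96 in EGFNWR medium and 8.38, 8.34 and 8.55 in ER medium. The 2 media did not overlap, while glands b lay within the range of EGFNWR organoids.

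Efnb2, the other ephrin-B ligand among the listed genes and a marker of arteries elsewhere in the body, was dim in tissue. It was 5.27, 5.76 and 4.82 in chief cells, 4.34 and 4.09 in parietal cells and 4.65 and 6.49 in glands, so that both parietal arrays, chief c and glands a lay below their array medians. In organoids it stood between 8.03 and 8.20 on all 6 arrays. The organoids were above every tissue array, and the media overlapped.

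**Figure D1:**
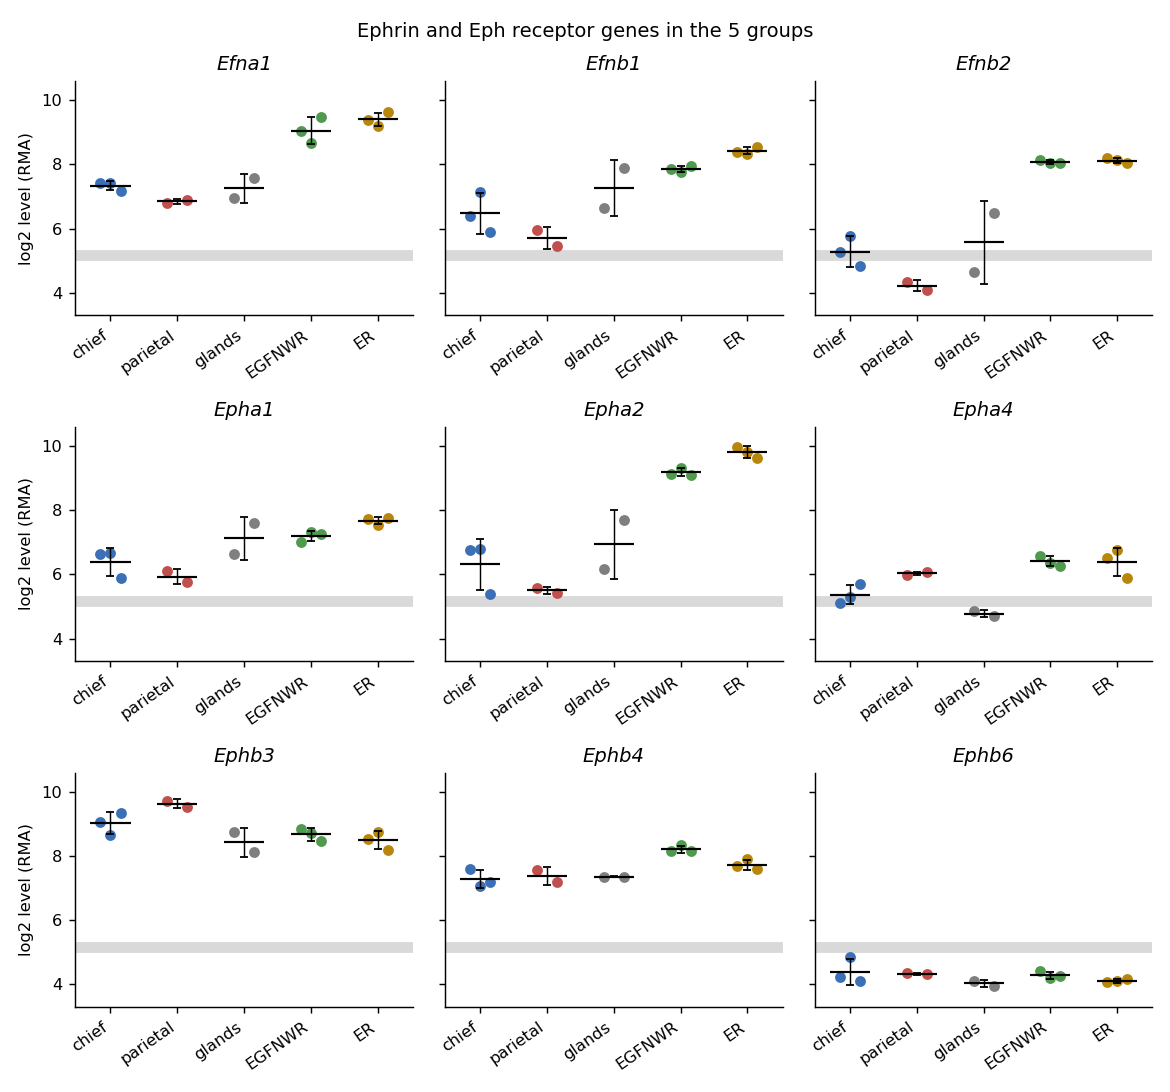
Log2 level (RMA, vertical axis) of the 9 measured genes in the 5 groups, with 1 point per array, a horizontal line at the group mean and a bar of 1 SD to each side; the grey band spans the array medians from 5.01 to 5.30. Efna1, Efnb2 and Epha2 lie higher in both organoid groups than on any tissue array, and Ephb6 lies below the band on all 13 arrays.

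Of the A-type receptors, Epha2, which is abundant in many epithelia and tumours, ranged from 5.40 to 9.98 over the 13 arrays. It was 6.75, 6.78 and 5.40 in chief cells, 5.58 and 5.43 in parietal cells and 6.17 and 7.70 in glands. In EGFNWR organoids it was 9.13, 9.33 and 9.11, and in ER organoids 9.98, 9.82 and 9.62. All ER arrays lay above all EGFNWR arrays, and these above all tissue arrays.

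Epha1, an epithelial receptor and the founding member of the family, was 6.62, 6.68 and 5.89 in chief cells, 6.09 and 5.76 in parietal cells and 6.64 and 7.60 in glands. It was 7.01, 7.32 and 7.25 in EGFNWR and 7.73, 7.55 and 7.75 in ER organoids. The ER arrays lay above the EGFNWR arrays, and glands overlapped with EGFNWR organoids.

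Epha4, which binds both ephrin classes, ran in another order. It was 5.11, 5.29 and 5.71 in chief cells, 5.99 and 6.07 in parietal cells and 4.85 and 4.71 in glands. It was below the array median on both gland arrays and on chief a and b, so its differences from these groups start from levels not shown to exceed background. The organoid values were 6.58, 6.37 and 6.27 in EGFNWR medium and 6.51, 6.76 and 5.89 in ER medium. The parietal values lay above those of chief cells and glands with no overlap, and the organoid media overlapped with each other.

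Of the B-type receptors, Ephb3 had its highest level in parietal cells, at 9.73 and 9.54. It was 9.06, 8.67 and 9.34 in chief cells, 8.75 and 8.11 in glands, 8.85, 8.73 and 8.46 in EGFNWR organoids and 8.54, 8.75 and 8.19 in ER organoids. Parietal cells did not overlap with chief cells, whereas the following groups in the order (chief, EGFNWR, ER, glands) each overlapped with the next.

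Ephb4, the receptor of veins and of many epithelia, had overlapping values in the 3 tissue groups. It was 7.60, 7.08 and 7.18 in chief cells, 7.57 and 7.19 in parietal cells and 7.34 and 7.36 in glands, against 8.15, 8.33 and 8.15 in EGFNWR and 7.68, 7.91 and 7.61 in ER organoids. EGFNWR organoids lay above ER organoids, which lay above every tissue array. Ephb6, a receptor without kinase activity, lay between 3.95 and 4.84, below the median of each of the 13 arrays, and is not shown to exceed background.

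The first comparisons asked how reporter-positive chief and parietal cells differ from each other and from whole glands. Parietal cells had a mean Ephb3 level 1.21 (SE 0.30) above glands and a mean Epha4 level 1.25 (SE 0.24) above glands on the log2 scale. Efnb1 lay lower in parietal cells than in glands, by a log2 difference of -1.58 (SE 0.50), as did Epha2 (-1.43, SE 0.58), Efnb2 (-1.36, SE 0.56) and Epha1 (-1.20, SE 0.38). None of the 9 genes passed the threshold of 0.05 on limma's p-value adjusted over all genes, which 1.61% of all genes passed (0.228% higher and 1.38% lower in parietal cells). Epha4 came closest, with adjusted p = 0.0502, followed by Ephb3 with 0.0832, and the adjusted p of the other 7 lay between 0.140 and 0.948. At an unadjusted p under 0.05 there were 6 of 9, against 20.9% of all genes, and 8 of 9 did not overlap between the groups, against 66.4% of all genes.

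With the replicate letter as a block, Epha4 (adjusted p = 0.0157) and Ephb3 (0.0206) passed in limma, where 8.51% of all genes did. The labels do not say that equal letters mark a shared preparation. Epha4 also passed with arrays centred on their median (0.0499, with 1.45% of all genes) and with dim genes left out (0.0433, with 4.24%). With all 13 arrays in 1 fit Ephb3, Epha4, Epha1 and Efnb1 passed (adjusted p 0.0115 to 0.0275), as did 14.4% of all genes. Leaving out either gland array moved the sizes of Efnb2 and Epha2 by over 1.5 times, and for Efnb1 only leaving out glands replicate b did so. Without glands replicate a Efnb2 differed by -2.28 (adjusted p = 0.0429, with 2.17% of all genes passing), Epha2 by -2.20 and Efnb1 by -2.20. Without glands replicate b the same genes differed by -0.435, -0.665 and -0.955, and no member passed. Efnb2 lay below the array median on both parietal arrays and on glands a. The gland arrays stood apart for several of these genes. Efnb1 differed between them by more than 1 log2 unit, at 6.65 and 7.89, and Epha2 stood at 6.17 and 7.70. The mean of 4 pit cell markers was 12.63 and 12.94 on these 2 arrays and 10.34 and 10.62 on the parietal arrays. That of 5 proliferation markers was 8.45 and 8.67 on the gland arrays and 5.90 and 5.76 on the parietal arrays. For 4 tuft cell markers it was 6.45 and 6.75 against 3.96 and 4.35. The means of the parietal markers and immediate early genes were higher on the parietal arrays. The part of these markers in the differences was not tested.

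Between chief and parietal cells, 0 of 9 members and 0% of all genes passed, with 1 of 9 and 12.1% at an unadjusted p under 0.05. The median log2 difference over the 9 was 0.47, against -0.05 over all genes. Chief cells had less Ephb3 (-0.61 in log2, SE 0.27, adjusted p = 0.418 in limma) and less Epha4 (-0.66, SE 0.22, adjusted p = 0.352), both with no overlap between the groups. Efnb2 (1.07, SE 0.51, adjusted p = 0.435) and Efna1 (0.50, SE 0.23, adjusted p = 0.428) were higher in chief cells, also with no overlap. These 4 of 9 genes compare with 30.1% of all genes that did not overlap. Without chief replicate c, which resembled the parietal arrays, 1 member passed, Epha4 at -0.83 (SE 0.18, adjusted p = 0.0417), and so did 7.00% of all genes.

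Between chief cells and glands, 0 of 9 members passed, against 0.478% of all genes, and 1 of 9 had an unadjusted p under 0.05, against 15%. That gene was Epha4, 0.59 (SE 0.22, limma adjusted p = 0.273) higher in chief cells, the only member whose chief and gland arrays did not overlap (31.4% of all genes). Efnb1 differed by -0.79 (SE 0.45), Epha1 by -0.72 (SE 0.35) and Ephb3 by 0.59 (SE 0.27), with adjusted p of 0.443, 0.374 and 0.354. Without glands replicate b the difference of Epha2 turned from -0.63 to 0.14 and that of Efnb2 from -0.29 to 0.63.

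Across the 7 tissue arrays, Ephb3 and Epha4 were high where Epha1, Epha2 and Efnb1 were low. The 3 arrays with the highest Ephb3, parietal a, parietal b and chief c, were also the 3 with the highest Epha4. They were the 3 arrays with the lowest Epha1 (5.76 to 6.09), Epha2 (5.40 to 5.58) and Efnb1 (5.45 to 5.94) too. Glands b had the lowest Ephb3 and Epha4 and the highest Epha1, Epha2, Efna1, Efnb1 and Efnb2 of the 7. Efnb2 followed this order in part, since glands a at 4.65 lay below chief c at 4.82. Ephb4 did not follow it, as chief a and parietal a were its highest arrays. The 3 arrays rich in Ephb3 were also those with the highest mean of the parietal markers, 11.08 to 11.36, and with the lowest mean of 5 proliferation markers, 5.76 to 6.45 against 7.87 to 8.67 on the other arrays. Glands b had the highest mean of the pit markers. The part of these markers in the pattern was not tested. The pattern was noticed after the values were seen and is given as a description of 7 arrays.

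**Figure D2:**
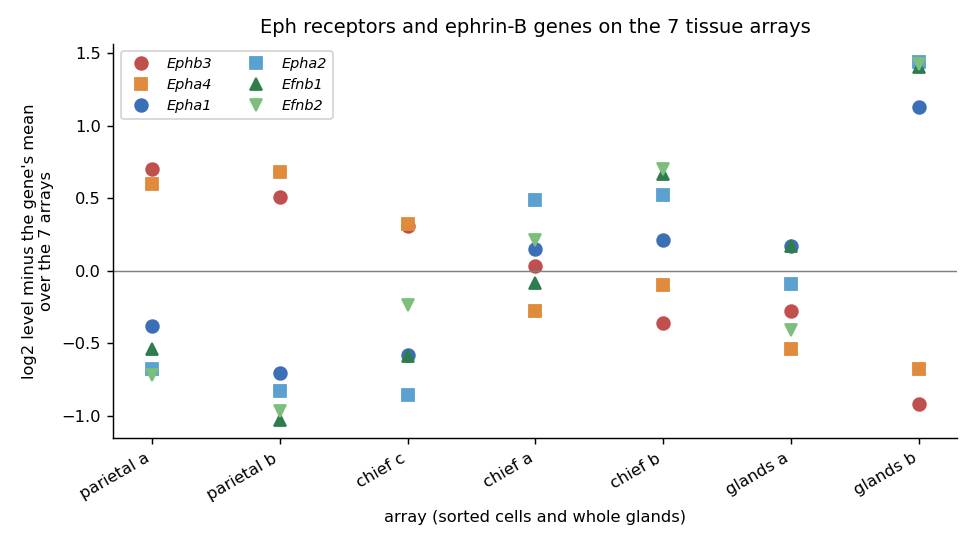
Log2 level minus the gene's mean over the 7 tissue arrays (vertical axis) for 6 genes on each array (horizontal axis), with 1 point per gene and array. Ephb3 and Epha4 lie above their means on parietal a, parietal b and chief c, where Epha1, Epha2, Efnb1 and Efnb2 lie below theirs, and the reverse holds on glands b.

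The next comparison set EGFNWR organoids against the sorted chief cells from which such organoids are grown, in a fit of all 13 arrays. Culture, sorting and the separate experiments cannot be told apart here. Of the 9 members 7 rose and 0 fell, against 24.1% and 16.2% of all genes (40.3% in either direction). At an unadjusted p under 0.05 it was also 7 of 9, against 50% of all genes, and 7 of 9 did not overlap between the groups, against 48.1% of all genes. The median log2 difference of the 9 was 1.04, against -0.07 over all genes. With dim genes left out, 56.6% of 11559 genes passed (4504 higher and 2038 lower), and the median over those genes was 0.26. Epha2 rose by 2.88 (SE 0.39, limma adjusted p = 0.000162), which is 7.36-fold. Efnb2 rose by 2.80 (SE 0.37, adjusted p = 0.000130), which is 6.95-fold from a level near the array medians in chief cells, so that the size is uncertain. Efna1 rose by 1.72 (SE 0.22, adjusted p = 0.000106), or 3.29-fold.

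The other members that rose were Efnb1 by 1.37 (SE 0.33, limma adjusted p = 0.00601), Epha4 by 1.04 (SE 0.21, adjusted p = 0.00253), Ephb4 by 0.92 (SE 0.16, adjusted p = 0.000830) and Epha1 by 0.80 (SE 0.25, adjusted p = 0.0264). Epha1 lost its call without chief replicate c (0.54, adjusted p = 0.0985), without EGFNWR replicate b (0.73, 0.0860) and without EGFNWR replicate c (0.77, 0.0692). Ephb3 did not pass, with a log2 difference of -0.34 (SE 0.22, adjusted p = 0.227), nor did Ephb6. The median of all genes moved from -0.07 to 0.07 when arrays were centred on their median, where 5310 genes were higher and 1853 lower, against 4535 and 3052 as deposited. The same 7 members were higher under that scaling. Epha4 also started near the array medians in chief cells, so its size is uncertain too. Cell markers moved with this comparison. The mean of the 6 parietal markers was 9.30 to 11.08 in chief cells and 4.69 to 5.09 in EGFNWR organoids, that of 5 enteroendocrine markers 7.78 to 8.93 and 4.82 to 4.97, and that of 5 chief markers 11.46 to 12.30 and 9.02 to 9.21. The 7 immediate early genes all fell, from a mean of 9.84 to 11.14 to one of 7.47 to 7.75. Their part in the changes of the members was not tested.

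**Figure D3:**
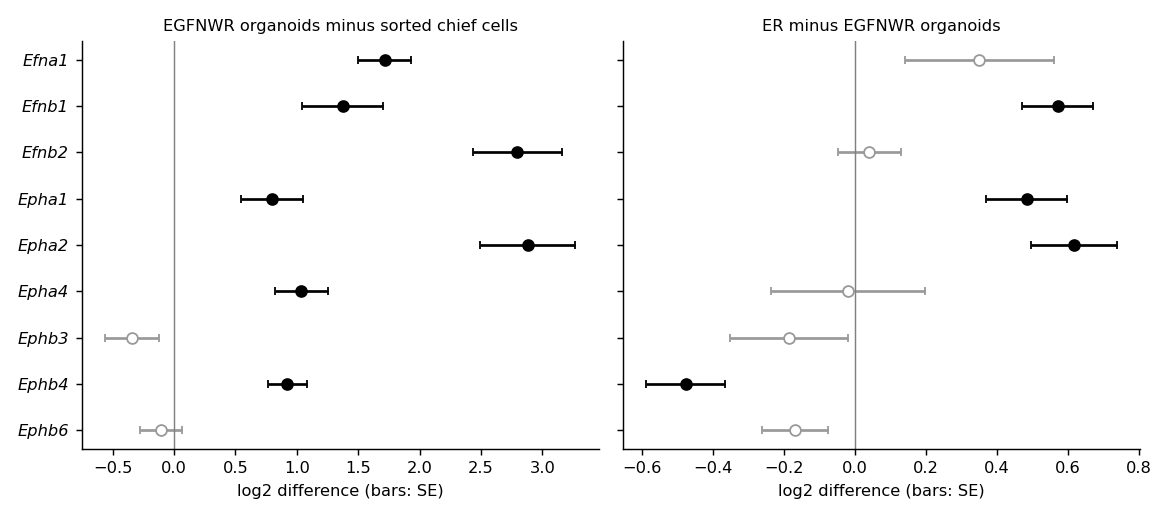
Log2 difference (horizontal axis, bars are 1 SE) of the 9 genes between EGFNWR organoids and sorted chief cells (left) and between ER and EGFNWR organoids (right); the 2 panels have different scales. Filled points passed limma's adjusted threshold of 0.05 (7 genes on the left, 4 on the right) and open points did not.

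The organoid media were compared to ask how levels differ without added Wnt3a, Noggin, FGF10 and gastrin. In ER medium the receptors Epha2 and Epha1 and the ligand Efnb1 rose and the receptor Ephb4 fell. Thus 3 of 9 members were higher, against 9.14% of all genes, and 1 of 9 lower, against 10.1% (19.2% in either direction). With dim genes left out, 35.6% of 10726 genes passed (1805 higher and 2013 lower), so the share depends on the dim genes counted. The median log2 difference of the 9 was 0.04, against 0.01 over all genes, and 5 of 9 did not overlap, against 36.1%. Efnb1 was 0.57 (SE 0.10, limma adjusted p = 0.00910) higher, or 1.48-fold, and passed under every alternative except the fit of all 13 arrays (0.376). Epha2 was 0.62 (SE 0.12, adjusted p = 0.0124) higher, or 1.53-fold, and missed the threshold in that fit (0.439) and without EGFNWR replicate a (0.0553).

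Epha1 was 0.48 (SE 0.11, limma adjusted p = 0.0243) higher and Ephb4 fell by 0.48 (SE 0.11, adjusted p = 0.0236), changes of 1.40-fold and 1.39-fold. Their calls were the least steady. Both were lost without EGFNWR replicate a (adjusted p = 0.0811 and 0.0649), without ER replicate a (0.0863 and 0.0847), without ER replicate c (0.0643 and 0.0614), with all 13 arrays in 1 fit (0.316 and 0.0924) and with every probeset tested (0.0513 and 0.05002). Ephb4 was also lost without EGFNWR replicate b (0.0862). Ephb3 differed by -0.19 (SE 0.17, adjusted p = 0.515), Efna1 by 0.35 (SE 0.21, adjusted p = 0.311), Efnb2 by 0.04 (SE 0.09, adjusted p = 0.818) and Epha4 by -0.02 (SE 0.22, adjusted p = 0.965). Of these ephrin-B ligands, Efnb1 passed and Efnb2 did not, but the difference between their changes was not tested.

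Other cell markers changed between the media as well. The mean of 4 pit markers was 7.72 to 10.55 in EGFNWR and 11.50 to 12.52 in ER organoids, that of 5 proliferation markers 8.35 to 8.74 and 6.23 to 7.34, and that of 5 chief markers 9.02 to 9.21 and 6.38 to 8.10. All 4 pit markers lay above the median on each of the 6 arrays. Their part in the changes of the ephrins and Eph receptors was not tested. ER replicate b lay nearer to EGFNWR organoids, with chief markers at 8.10 and Lgr5 at 7.80, against 4.33 and 4.50 in ER replicates a and c. It was also the ER array with the highest Ephb4 and the lowest Epha1 and Efnb1, that is, the ER array nearest to EGFNWR for these 3 genes, but not for Epha2. Without ER replicate b the same number of members, 4, passed.

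The remaining 12 genes of the family were measured too, and none passed in the 3 tissue comparisons. At an unadjusted p under 0.05, limma gave 1 of 12 between chief and parietal cells, 1 between chief cells and glands and 4 between parietal cells and glands. The shares of all genes were 12.1%, 15% and 20.9% in the same order. Efna5, an ephrin-A ligand, was 8.06, 7.97 and 8.33 in chief cells, 8.46 and 8.65 in parietal cells and 9.14 and 9.99 in glands, so both sorted groups lay below the glands. Its difference between chief cells and glands was -1.45 (SE 0.27, limma adjusted p = 0.0758). Efna2 was 7.32, 6.71 and 7.61 in chief cells, 8.29 and 7.72 in parietal cells and 7.23 and 6.09 in glands. Epha10 (5.29 and 5.36) in parietal cells, Epha7 on 2 chief arrays (5.92 and 6.06) and glands a (5.51), and Ephb1 on parietal a (5.29) and glands a (6.17) also exceeded the array medians, Ephb1 with 3.89 on glands b.

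In EGFNWR organoids against chief cells, 2 of these 12 genes rose and 3 fell, against 24.1% and 16.2% of all genes, so that the 5 in all are near the background of 40.3%. The ligands Efna3 and Efna4 rose by 3.65 (SE 0.47, limma adjusted p = 0.000110) and 2.61 (SE 0.31, adjusted p = 6.36e-05). The ligand Efna2 fell by 1.86 (SE 0.29, adjusted p = 0.000382), Epha7 by 0.98 (SE 0.28, adjusted p = 0.0167) and Epha10 by 0.36 (SE 0.12, adjusted p = 0.0333) on the log2 scale. Efna3 in chief cells, Epha7 in EGFNWR organoids and Epha10 in both groups had means below the array medians, so these sizes are uncertain. Efna2 ended near the medians, at a mean of 5.35 in EGFNWR organoids, so the size of its fall is uncertain too. In ER against EGFNWR medium, Efna4 fell by 1.75 (SE 0.34, adjusted p = 0.0119) and Efna3 by 1.63 (SE 0.36, adjusted p = 0.0189), while Efna5 rose by 0.38 (SE 0.10, adjusted p = 0.0329). Between the media 1 of the 12 thus rose and 2 fell, against 9.14% and 10.1% of all genes, and the other 9 did not pass. Epha3, Epha5, Epha6, Epha8 and Efnb3 lay below the median on all 13 arrays.

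Efna1, Efna3 and Efna4 lie side by side on chromosome 3 in RefSeq, with no other protein-coding gene between them. Efna3 was 4.73, 5.42 and 4.04 in chief cells, 3.98 and 5.25 in parietal cells, 8.74, 8.50 and 7.91 in EGFNWR organoids and 6.99, 7.31 and 5.97 in ER organoids. Efna4 was 6.75, 6.75 and 6.39, then 9.40, 9.57 and 8.76, then 7.44, 8.16 and 6.87 in chief cells, EGFNWR and ER organoids. Both lay in ER medium below every EGFNWR array, whereas the Efna1 arrays overlapped between the media. Whether the change of Efna1 differs from that of its neighbours was not tested. A second, dimmer probeset of Efna3 lay at 4.36 in EGFNWR and 4.26 in ER organoids, below the array medians, and differed by -0.10. In chief cells this probeset lay at 3.79, also below the medians. Its difference between EGFNWR organoids and chief cells was 0.57, against 3.65 for the brighter probeset.

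**Figure D4:**
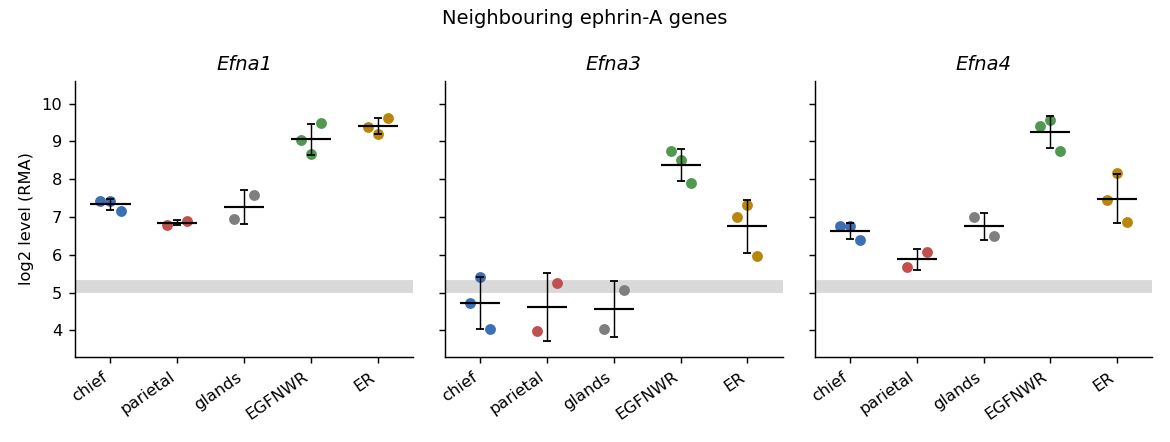
Log2 level (RMA, vertical axis) of 3 neighbouring ephrin-A genes in the 5 groups, with 1 point per array, a line at the group mean and a bar of 1 SD to each side; the grey band spans the array medians. Efna3 and Efna4 lie lower in ER than in EGFNWR organoids (means of 6.76 against 8.38 and 7.49 against 9.24), and Efna1 overlaps between them.

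A list of 36 genes that act beside or after Eph receptors, such as adaptors, kinases of the Src and Abl families and exchange factors, had 32 measured. None of the 32 passed in the 3 tissue comparisons, where limma gave 6, 4 and 9 of them at an unadjusted p under 0.05 between chief and parietal cells, chief cells and glands, and parietal cells and glands (12.1%, 15% and 20.9% of all genes). In ER against EGFNWR organoids 5 rose and 3 fell, against 9.14% and 10.1% of all genes. The Rac exchange factor Tiam1 fell by 1.52 (SE 0.14, limma adjusted p = 0.00448) and the Rac regulator Chn1 by 1.47 (SE 0.33, adjusted p = 0.0218), both to mean levels below the array medians. The adaptor Crk rose by 0.45 (SE 0.11, adjusted p = 0.0245) and the exchange factor Ngef by 0.44 (SE 0.12, adjusted p = 0.0450). In EGFNWR organoids against chief cells 9 rose and 5 fell, near the background of 24.1% and 16.2% of all genes. Rgs3 (1.67, SE 0.22) and the adaptor Grb7 (1.48, SE 0.17) had the largest increases, and the PI3-kinase subunit Pik3r1 (-1.09, SE 0.20) and Kalrn (-0.66, SE 0.13) the largest decreases.

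Since EphB receptors are known Wnt targets elsewhere, a list of 17 other Wnt target and feedback genes was read beside them, of which 16 were measured. In ER organoids 10 of 16 fell and 0 rose, against 10.1% and 9.14% of all genes, with a median log2 difference of -1.16. The stem cell marker Lgr5 fell by 4.21 (SE 0.84, limma adjusted p = 0.0135) and the transcription factor Ascl2 by 3.07 (SE 0.42, adjusted p = 0.00495). Ephb3 differed by -0.19 (SE 0.17) in the same fit, and whether it differs from the list was not tested. In chief cells against glands 3 of 16 rose, against 0.128% of all genes, among them Lgr5 (3.68, SE 0.46, adjusted p = 0.0263) and Tnfrsf19 (2.81, SE 0.33, adjusted p = 0.0199), the gene the cells were sorted on. In parietal cells against glands these same 2 rose, Lgr5 by 3.18 (SE 0.51, adjusted p = 0.0363) and Tnfrsf19 by 3.36 (SE 0.36, adjusted p = 0.0167), against 0.228% of all genes. Tnfrsf19 is in both counts, and the sort itself selected for its reporter. Single arrays moved these counts. The count of 3 was 0 without glands replicate b, 1 without chief replicate b and 6 without chief replicate c, and the count of 2 was 0 without parietal replicate a, parietal replicate b or glands replicate b. In EGFNWR organoids against chief cells 5 of 16 rose and 2 fell, against 24.1% and 16.2% of all genes, with Ascl2 (2.70, SE 0.36) and Ccnd1 (2.18, SE 0.25) the largest increases and Smoc2 (-1.65, SE 0.27) and Znrf3 (-0.93, SE 0.19) the decreases.

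For each member past the threshold in a comparison, and for Ephb3, the genes with the most similar profile were sought among 9410 genes of above-median level, by Pearson's r over the 13 arrays. These values describe arrays that fall into tissue and organoid groups, so a high r can largely reflect that division, though less so for Ephb3, whose groups overlapped. For the nearest gene, r within the 7 tissue and the 6 organoid arrays is given as well. Epha2 was nearest to Nectin2 (r = 0.995, and 0.971 and 0.887 within), then Tbl1x and Tspan3. Efnb1 was nearest to Gpsm2 (0.986, and 0.983 and 0.925 within), then Nfatc2 and Slc52a3. Epha1 was nearest to Plcd1 (0.983, and 0.987 and 0.834 within), then Ralgds and Tnk2. For Ephb4 the nearest was Zscan22 (0.972, and 0.906 and 0.956 within), followed by Gnl3l and Prmt5. Efna1 was nearest to Tshz2 (0.988, and 0.926 and 0.756 within), then Cfb and Aldoc, and Efnb2 to S100a10 (0.989, and 0.914 and 0.699 within), then Bcl3 and Sdc1. Epha4 was nearest to Galnt1 (0.962, and 0.949 and 0.911 within), then Grina and Susd6. Ephb3 was nearest to Atp10d (0.961, and 0.978 and 0.912 within), then Ulk2 and Mgrn1.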

How the data were processed

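Total RNA of each of 13 samples was read on its own Affymetrix array. The authors deposited log2 values; the submitters' processing notes name RMA and Affymetrix Power Tools, and their versions are not given in the sources used. RMA sets the arrays to nearly equal distributions, which hides a shift common to most genes. No detection call was used.

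Of 35556 probesets 21218 had 1 gene symbol in the platform annotation, 1881 had several and 12457 none. For a gene with several single-symbol probesets the brightest on average in a fit was taken, which left 18820 genes. Groups followed the sample titles. The 7 tissue arrays, the 6 organoid arrays and, for organoids against chief cells, all 13 arrays were fitted with a mean per group in limma 3.58.1 under R 4.3.3 (lmFit, then eBayes), tested on simulated data. Each comparison's p-values were adjusted by Benjamini-Hochberg over its 18820 genes, and 0.05 was the threshold. The study's text calls the organoid cultures different; for glands no number of animals is given, so p-values measure the spread between arrays, which may in part be technical. Comparisons of chief cells, parietal cells and glands share arrays.

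The members and gene lists were chosen with earlier results of these data known. Named genes are the members, other family genes past the threshold or above the array median, and the 2 largest changes in each direction past the threshold of the signalling and Wnt lists. The values printed come from fits without pairing. Equal letters of the organoid arrays may pair them, since the study's text has the cultures in both media. Equal letters deviated together (r 0.184, 0.233 and 0.386). Unequal letters gave r of 0.146 for EGFNWR b with ER a and 0.0592 for EGFNWR a with ER b. With a replicate c, unequal letters gave negative r, so a and b are less clearly paired than c. The letter as a block was an alternative. For the tissue arrays such pairing is not settled (0.263 and 0.110 for chief with parietal, -0.194 and 0.0693 for chief with glands, 0.0267 for parietal with glands). RefSeq promoters were read in Python 3.11.15.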

Additional observations from a re-analysis of the deposited data

How the results depend on the processing

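With 2 or 3 arrays in a group, precision is limited throughout. Alternatives were repeated quantile normalization, centring on the array median, leaving out dim genes, eBayes with trend and robust, testing every probeset, other arrays in the fit, the replicate letter as a block, and leaving out each array in turn. Of 544 recomputed member differences 501 kept their direction and side of the threshold, 17 lost the threshold, 10 gained it and 16 changed sign, the last all in differences that had not passed. The calls of the other family genes, such as Efna5, and of the signalling list, such as Crk and Ngef, were not rechecked in this way. For the Wnt list only the counts were.

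Between chief and parietal cells the number of members past the threshold was 0 to 1 over the arrays left out, and between chief cells and glands it was 0 throughout. Between parietal cells and glands it was 0 as fitted, 1 with arrays centred or with dim genes left out, 4 with all 13 arrays, 2 with the replicate block, and 0 to 1 with arrays left out. For ER against EGFNWR it was 4 as fitted, 2 with every probeset, 0 with all 13 arrays, 1 to 4 with arrays left out, and 4 with the replicate block. In that fit of all 13 arrays the tissue arrays also enter the estimate of the spread. For EGFNWR organoids against chief cells it was 7 as fitted, 7 with the replicate block and 6 to 7 with arrays left out. Apart from parietal cells against glands, the block changed no count of members past the threshold.

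Some differences that had not passed changed sign. Centring gave Ephb6 -0.0167 between chief and parietal cells. Between the media, quantile normalization and centring gave Epha4 0.0625 and 0.0417. Between EGFNWR organoids and chief cells they gave Ephb6 0.142 and 0.035. With arrays left out, Ephb6 ran from -0.17 to 0.20 and Ephb4 from -0.283 to 0.0967 between chief and parietal cells. Between chief cells and glands Efna1 ran from -0.24 to 0.40, Epha2 from -1.39 to 0.14, Efnb2 from -1.21 to 0.633 and Ephb4 from -0.22 to 0.04. Ephb4 ran from -0.16 to 0.22 between parietal cells and glands, Epha4 from -0.207 to 0.228 between the media, and Ephb6 from -0.247 to 0.123 between EGFNWR organoids and chief cells. The cause was not tested.

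Over all genes the number past the threshold moved more. It was 0 between chief and parietal cells, 166 with all 13 arrays, 1652 with the block and 1317 without chief replicate c. Over the alternatives it was 17 to 1215 between chief cells and glands (90 as fitted), 2 to 2707 between parietal cells and glands (303 as fitted), 1705 to 4444 between the media (3620 as fitted) and 5539 to 9381 between EGFNWR organoids and chief cells (7587 as fitted). Testing all 35556 probesets in place of genes called 52, 66, 3289 and 11568 of them in these 4 comparisons and 0 between chief and parietal cells. No member has a second single-symbol probeset, so each member kept its difference there and only its SE and adjusted p changed.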
